A study of Mus musculus with 12 samples.

Results

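AP-1 is a family of transcription factor dimers, and 8 genes that code for its subunits or close relatives were followed here across entorhinal cortex (EC) neurons in which Dek was silenced or overexpressed. The members were taken by gene symbol, without a cut on any measured value: Fos, Fosb and Fosl2 of the FOS family, Jun, Junb and Jund of the JUN family, and Atf3 and Maff, which code for related bZIP proteins. They are 8 of the 24100 genes in the table of estimated counts, and all 8 were expressed highly enough to be tested in every comparison.

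RNA-seq was performed on primary EC cultures from C57BL/6J mouse embryos at E17, transduced at day 7 in vitro with an AAV1 vector at 1e+10 viral genomes per ml of medium and harvested 4 days later. The silencing group received a U6-driven Dek hairpin with an mCherry reporter and the scrambled group the same kind of vector with a scrambled hairpin. The overexpression group received mouse Dek cDNA followed by IRES-mCherry under the neuronal hSyn1 promoter, and the empty vector group received hSyn1-mCherry-WPRE. Each group had 3 libraries, from 3 wells, and because nothing states that the wells came from separate dissections, p-values measure only the spread between wells. Wild-type cells were used in all 4 groups, every group carried an AAV and mCherry, and no untransduced culture was analysed here. The hairpin acts in any cell that the virus enters, whereas the hSyn1 vectors are expressed in neurons.

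AP-1 proteins bind DNA as pairs held together by a leucine zipper. FOS proteins need a partner, usually a JUN protein, whereas JUN proteins can also pair with each other, and the make-up of the pair shapes which genes respond and how strongly. In neurons, Fos, Fosb and Junb are immediate early genes that are switched on within minutes of synaptic activity through calcium and MAP kinase signalling, Jun and Atf3 are known for the response to axon injury and stress, and Jund is expressed at a steadier level. The small MAF protein MAFF has no activation domain of its own and works through its partners.

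The 250 bases upstream of each gene's RefSeq start site (build GRCm38.p6) were searched on both strands for letters that known regulators of these genes recognise. Of these windows, 5 are shown. The core of the cAMP response element, TGACG or its complement CGTCA, is in capitals, as is the full element TGACGTCA, which contains the core on each strand. Fos, Fosb and Junb were the 3 members that were lower in at least one comparison with the silencing group, Jun was not called in any comparison in the main test, and Maff has the only full element among the members. The windows of Atf3 and Jund are not shown. Atf3 also has a core, and it was called higher in silencing than in empty vector cultures. Jund was called higher in scrambled than in empty vector cultures. All sequences are written 5′ to 3′ in the direction of transcription and end at the base before the start site.
Fos (chr12:85473640-85473889, plus strand): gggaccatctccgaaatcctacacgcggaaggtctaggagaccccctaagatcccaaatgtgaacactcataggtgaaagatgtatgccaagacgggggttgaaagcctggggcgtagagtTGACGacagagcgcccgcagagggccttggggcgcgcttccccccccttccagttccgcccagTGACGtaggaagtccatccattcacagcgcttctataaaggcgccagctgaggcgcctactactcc
Fosb (chr7:19310046-19310295, minus strand): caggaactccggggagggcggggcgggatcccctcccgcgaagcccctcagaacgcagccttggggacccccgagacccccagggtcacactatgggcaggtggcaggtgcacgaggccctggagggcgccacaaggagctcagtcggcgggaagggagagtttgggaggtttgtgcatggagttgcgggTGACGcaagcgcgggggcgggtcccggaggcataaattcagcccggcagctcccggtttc
Junb (chr8:84978749-84978998, minus strand): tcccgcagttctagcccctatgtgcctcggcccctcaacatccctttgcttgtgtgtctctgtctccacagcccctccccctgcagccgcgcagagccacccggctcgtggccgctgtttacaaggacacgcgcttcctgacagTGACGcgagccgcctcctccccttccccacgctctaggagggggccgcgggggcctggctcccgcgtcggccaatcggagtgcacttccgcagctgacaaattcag
Jun (chr4:95052223-95052472, minus strand): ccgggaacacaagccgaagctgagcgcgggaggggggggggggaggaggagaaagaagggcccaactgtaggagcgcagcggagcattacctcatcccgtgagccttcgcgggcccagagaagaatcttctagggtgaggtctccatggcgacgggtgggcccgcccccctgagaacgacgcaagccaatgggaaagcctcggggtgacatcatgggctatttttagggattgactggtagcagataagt
Maff, second RefSeq start (chr15:79347270-79347519, plus strand): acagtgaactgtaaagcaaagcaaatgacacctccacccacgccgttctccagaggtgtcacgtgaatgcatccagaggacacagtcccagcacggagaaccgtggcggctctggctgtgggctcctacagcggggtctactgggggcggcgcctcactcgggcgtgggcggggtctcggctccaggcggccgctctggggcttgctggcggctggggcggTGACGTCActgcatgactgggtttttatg

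The Fos window held 2 cores, 129 to 125 and 66 to 62 bases before the start, and a TATAAA run 33 to 28 bases before it. Fosb had 1 core at 60 to 56 bases, Junb 1 at 106 to 102 bases and Atf3 1 at 7 to 3 bases before the start. Maff has 3 RefSeq starts, of which the second had the full element 29 to 22 bases upstream and the third a core 122 to 118 bases upstream. No core was found in the windows of Fosl2, Jun or Jund. The Jund window (chr8:70697489-70697738) did not adjoin the annotated gene, which starts at chr8:70698949. The Atf3 window (chr1:191183334-191183583) lay inside the annotated gene, which starts at chr1:191218039 on the minus strand. That of Fosl2 (chr5:32136222-32136471) also lay inside its gene, which starts at chr5:32135801. The Junb window stopped at chr8:84978749, shortly before the annotated start at chr8:84978718. The bases directly before the annotated starts of Jund, Atf3 and Fosl2 were therefore not searched. Of 32851 such windows of mouse genes, 17.8% held a core, 1.55% the full element and 12.4% a TATAAA run. The AP-1 site TGANTCA was found in 6.75% of all windows and the CArG box of serum response factor in 1.47%. Neither had a match in any window of the 8 members. Bases further upstream were not searched, and near matches to the letters were not counted. The lack of a match therefore does not show that a gene lacks such a site. All matches given are of letters and not mapped sites, and no binding was measured in these libraries.

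In the mm10 annotation Fos lies at chr12:85473890-85477273 (plus strand, 4 exons), Fosb at chr7:19302696-19310051 (minus, 4 exons) and Fosl2 at chr5:32135801-32157842 (plus, 4 exons). The 3 JUN genes consist of 1 exon each: Jun at chr4:95049034-95052222 (minus), Junb at chr8:84974484-84978718 (minus) and Jund at chr8:70698949-70700616 (plus). Atf3 lies at chr1:191170296-191218039 (minus, 4 exons) and Maff at chr15:79346621-79359076 (plus, 3 exons). Genes on the opposite strand overlap Jun (Junos), Junb (Prdx2), Jund (Gm11175) and Atf3 (Gm24748), and since no source used here gives the strand setting of the counting, reads of these pairs may not have been told apart.

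Library totals ranged between 15679567 and 18933382 estimated counts. Dek was lower in silencing than in scrambled cultures by 2.23 on the log2 scale (SE 0.10, adjusted p = 1.31e-08, edgeR) and higher in overexpression than in empty vector cultures by 1.89 (SE 0.08, adjusted p = 1.36e-08, edgeR). In this family, 4 libraries stood apart. In scrambled replicate 1, Atf3 was the gene furthest above the other scrambled libraries among 11018 expressed genes, and in silencing replicate 1 the deviations of 10854 genes followed GC content with a Pearson r of -0.42. The trend with GC content was stronger in overexpression replicates 2 (r = 0.60) and 3 (r = -0.58). Results that rest on one of these libraries are given with and without it. Summed marker genes of neurons were 5590 to 6150 CPM (counts scaled to library size) in silencing and 6420 to 6680 CPM in scrambled cultures. The 6 oligodendrocyte markers summed to 82.9 to 90.0 CPM in silencing against 30.9 to 41.6 CPM in scrambled cultures, the 7 astrocyte markers to 314 to 640 CPM against 323 to 592 CPM, and the 7 microglia markers to 4.02 to 4.36 CPM against 4.88 to 6.87 CPM. The lower microglia sum came from Aif1, at a mean of 1.22 CPM in silencing against 3.66 CPM in scrambled cultures. The other microglia markers had means of at most 0.962 CPM in both groups. Of these, C1qa was slightly lower in silencing (0.699 against 0.774 CPM) and the rest, such as Cx3cr1 (0.768 against 0.508 CPM), were not lower. The part of the marker genes in the results below was not tested, and in these bulk libraries fewer cells of a type cannot be told apart from less RNA per cell.

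The first question was whether loss of Dek changed the AP-1 genes. Fos and Junb were both lower in silencing than in scrambled cultures, to about the same degree, and the other 6 members did not pass the test (adjusted p at or above 0.05 by edgeR's quasi-likelihood test). No member was called higher. Dek silencing changed a large part of the transcriptome, with 54.7% of 14232 tested genes called, 26.2% higher and 28.5% lower, so 2 of 8 members called lower is no more than the share among all genes. The median log2 fold change of the 8 members was -0.16, against -0.00 for all tested genes. The 3 values of a group lay entirely to one side of the other group for 2 of the 8 members, against 61.9% of all tested genes.

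Fos, which codes for the FOS subunit and is the standard marker of recent neuronal activity, had 58.6, 30.6 and 45.6 CPM in the 3 silencing libraries, against 106, 75.1 and 81.9 CPM in the scrambled libraries. All 3 silencing libraries were below all 3 scrambled libraries, and the lowest silencing value was in replicate 2. The log2 fold change was -0.98 (SE 0.27, adjusted p = 0.032, edgeR), or 0.506 of the scrambled level. Without silencing replicate 3, scrambled replicate 1 or scrambled replicate 3 the adjusted p rose above 0.05, at a log2 fold change between -1.21 and -0.77 over all 6 single omissions.

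Fosb, which codes for FOSB and for the stable splice form known from chronic stimulation, had 10.3, 6.48 and 13.7 CPM in silencing and 23.5, 10.8 and 10.7 CPM in scrambled cultures. The groups overlapped, and only scrambled replicate 1 was above all the silencing libraries. The log2 fold change of -0.58 (SE 0.45, adjusted p = 0.328, edgeR) became -0.10 without that library. Fosl2, coding for the FOS-related antigen FRA2, was the most abundant FOS gene in CPM, at 214, 154 and 191 CPM in silencing and 264, 157 and 171 CPM in scrambled cultures. Its log2 fold change was -0.10 (SE 0.25, adjusted p = 0.769, edgeR), with a change of sign to 0.16 when scrambled replicate 1 was left out.

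Among the JUN genes, Junb, whose product is induced with FOS and often dampens the activity of JUN, had 7.85, 15.2 and 21.2 CPM in silencing, against 30.3, 30.6 and 35.2 CPM in scrambled cultures. The groups did not overlap, with the 3 scrambled values close together and the silencing values further apart. The log2 fold change was -1.12 (SE 0.35, adjusted p = 0.0429, edgeR), or 0.46 of the scrambled level. Single omissions gave values between -1.47 and -0.82, and the adjusted p passed 0.05 only without silencing replicate 1 (0.000424) or silencing replicate 3 (0.00645). Scaling by library totals alone left Junb just above the threshold.

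Jun, the main partner of FOS and a target of JNK kinases, showed 45.9, 60.4 and 58.9 CPM in silencing and 49.7, 46.6 and 40.7 CPM in scrambled cultures. Silencing replicates 2 and 3 were above every scrambled library and silencing replicate 1 was inside their range, with a log2 fold change of 0.26 (SE 0.12, adjusted p = 0.0847, edgeR). Jund, whose product also pairs with FOS proteins, had 47.1, 90.3 and 101 CPM in silencing and 66.8, 66.7 and 60.2 CPM in scrambled cultures. Silencing replicate 1 was the lowest of these 6 values and the other silencing libraries the highest, and the log2 fold change was 0.29 (SE 0.31, adjusted p = 0.483, edgeR). With all libraries Jun was called higher by DESeq2's Wald test (0.27, adjusted p = 0.0413) and by edgeR with library totals as the only scaling (0.36, adjusted p = 0.0254). Without silencing replicate 1, Jun (0.38, adjusted p = 0.00241) and Jund (0.56, adjusted p = 3.89e-05) were both called higher by the same test.

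Atf3, a stress-induced factor that is nearly silent in healthy neurons, had 13.4, 7.57 and 8.66 CPM in silencing and 26.4, 4.47 and 3.02 CPM in scrambled cultures. The scrambled libraries held both the highest and the lowest of these values. With all libraries the log2 fold change was -0.22 (SE 0.95, adjusted p = 0.865, edgeR), and without scrambled replicate 1 it turned to 1.37 (SE 0.28, adjusted p = 0.00297). Maff showed 17.9, 10.9 and 15 CPM in silencing and 15.6, 8.93 and 9.53 CPM in scrambled cultures, and in both groups replicate 1 was the highest and replicate 2 the lowest. Its log2 fold change was 0.34 (SE 0.25, adjusted p = 0.292, edgeR). With the replicate number as a block, which pairs these 2 groups, it was 0.36 (SE 0.12, adjusted p = 0.0136), so Maff was called higher under the pairing. It was not called under the same pairing with an offset for GC content and transcript length (0.23, SE 0.11, adjusted p = 0.067), and it was called without scrambled replicate 1 (0.64, adjusted p = 0.0175).

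**Figure D1:**
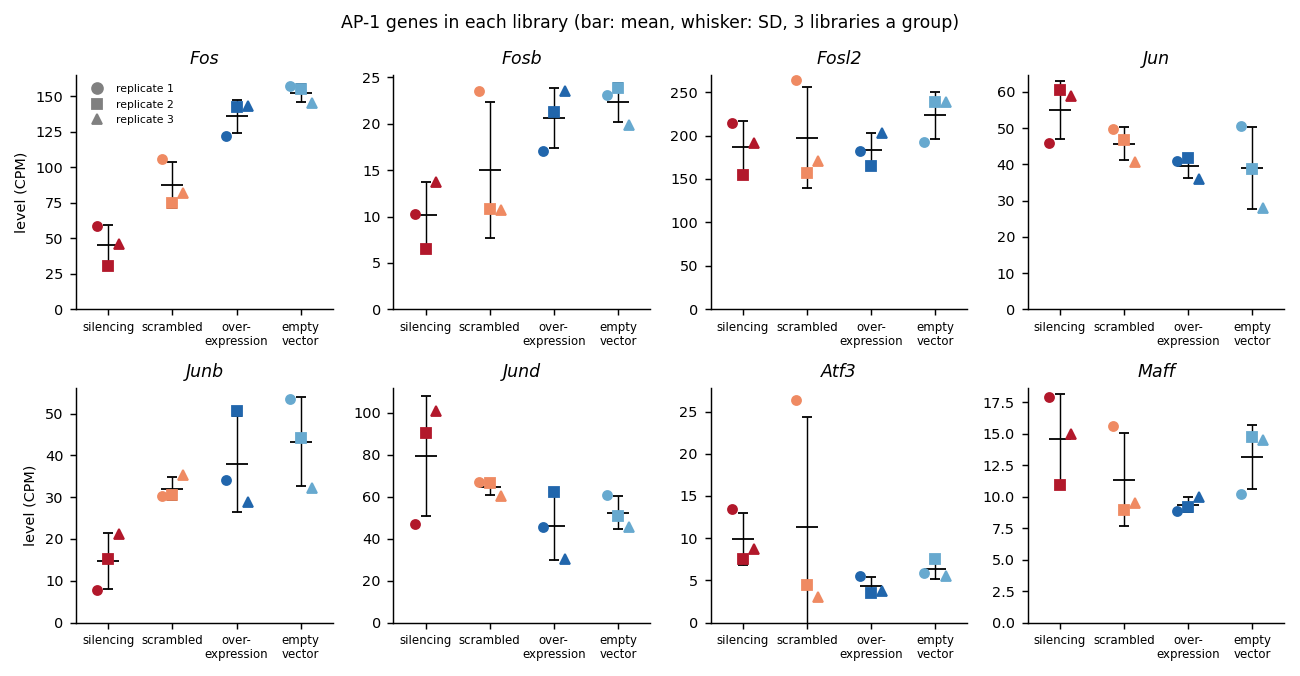
Level of each AP-1 gene in CPM (vertical axis, from 0) in the 12 libraries; symbols mark replicates 1, 2 and 3, horizontal bars the group mean and whiskers the SD (n = 3 per group). Fos lies at 30.6 to 58.6 CPM in silencing and 75.1 to 106 CPM in scrambled libraries, and scrambled replicate 1 alone sets the wide spread of Atf3, at 26.4 CPM.

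Leaving out both libraries numbered 1 was tried after their values had been seen. In that comparison of 2 silencing with 2 scrambled libraries, 6 of the 8 members were called. Fos (-1.05, adjusted p = 0.0024) and Junb (-0.86, adjusted p = 0.0002) were again lower, and Jun (0.44), Jund (0.58), Atf3 (1.11) and Maff (0.48) were higher, with adjusted p between 2.48e-05 and 0.0197 by edgeR. Fosb and Fosl2 stayed uncalled. The background moved little, with 8020 of 14324 genes called. With 6, 5 or 4 libraries in the test, Fos and Junb were below the scrambled level every time, whereas the direction of Atf3 depended on scrambled replicate 1.

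**Figure D2:**
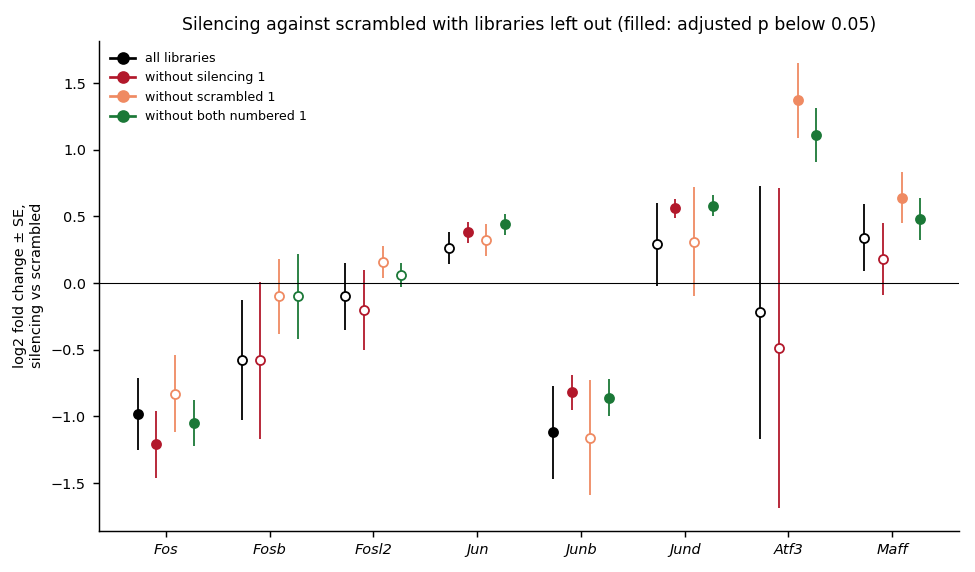
Log2 fold change of silencing over scrambled (vertical axis, ± SE) for the 8 members with all 6 libraries, without silencing replicate 1, without scrambled replicate 1 and without both; filled symbols have an adjusted p below 0.05 in edgeR. Atf3 moves between -0.22 with all libraries and 1.37 without scrambled replicate 1, while Fos and Junb stay below 0.

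The next question was whether raising Dek had the opposite effect. It did not move any of the 8 members past the threshold: overexpression changed 1 gene of 14089 (0.0071%), Dek itself, and 0 of 8 AP-1 genes were called by edgeR, DESeq2 or limma-voom. At an unadjusted p below 0.05, 4 members were lower in overexpression and none higher, against 3.68% of all tested genes lower at that level. These were Fos (log2 fold change -0.16, SE 0.07), Fosl2 (-0.28, SE 0.09), Atf3 (-0.53, SE 0.19) and Maff (-0.48, SE 0.14), with adjusted p between 0.64 and 0.714.

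Fos had 122, 142 and 143 CPM in overexpression, against 157, 155 and 145 CPM in empty vector cultures, and Maff had 8.89, 9.17 and 10.0 CPM against 10.2, 14.7 and 14.5 CPM. For these 2 genes the groups did not overlap, as for 11.6% of all tested genes. Fosl2 at 182, 165 and 203 CPM in overexpression and 192, 239 and 239 CPM in empty vector overlapped in 1 library of each group. Atf3 was low in both, at 5.53, 3.55 and 3.79 CPM in overexpression and 5.83, 7.52 and 5.51 CPM in empty vector cultures.

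The remaining members showed no shift beyond the spread, and 0 of 8 members were called when any one library was left out, overexpression replicates 2 and 3 included. Junb had 34.1, 50.7 and 28.9 CPM in overexpression and 53.4, 44.1 and 32.3 CPM in empty vector cultures (-0.19, SE 0.27), and Jund had 45.7, 62.4 and 30.2 CPM and 61.0, 50.6 and 45.5 CPM (-0.18, SE 0.27). In both genes overexpression replicate 2 was the highest of its group and replicate 3 the lowest. Jun at 40.9, 41.7 and 35.9 CPM in overexpression and 50.6, 38.7 and 28.0 CPM in empty vector had a log2 fold change of 0.02 (SE 0.20). Fosb at 17.1, 21.3 and 23.5 CPM in overexpression and 23.1, 23.9 and 19.9 CPM in empty vector had one of -0.11 (SE 0.11).

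A direct test of the difference between the 2 responses (silencing over scrambled, minus overexpression over empty vector) called 0 of 8 members by edgeR, against 43% of 14604 genes. The unadjusted p was below 0.05 for 2 members. Fos came nearest with a difference of -0.80 (SE 0.29, adjusted p = 0.0505), followed by Maff with 0.84 (SE 0.32, adjusted p = 0.0526). Both were called with DESeq2 (Fos 0.029, Maff 0.0142) and with limma-voom (Fos 0.00627, Maff 0.0367, and also Junb, 0.0396). With edgeR itself, Fos was called with the replicate block (adjusted p = 0.0401), Maff with library totals as the only scaling, Fos and Maff at a minimum of 5 CPM in 3 libraries, and Fos and Junb with GC and length offsets, so the calls changed with the tool, the scaling, the filter, the block and the offset. For Fos the estimate ranged between -1.03 and -0.59 over the 12 single omissions, and for Maff between 0.67 and 1.14.

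**Figure D3:**
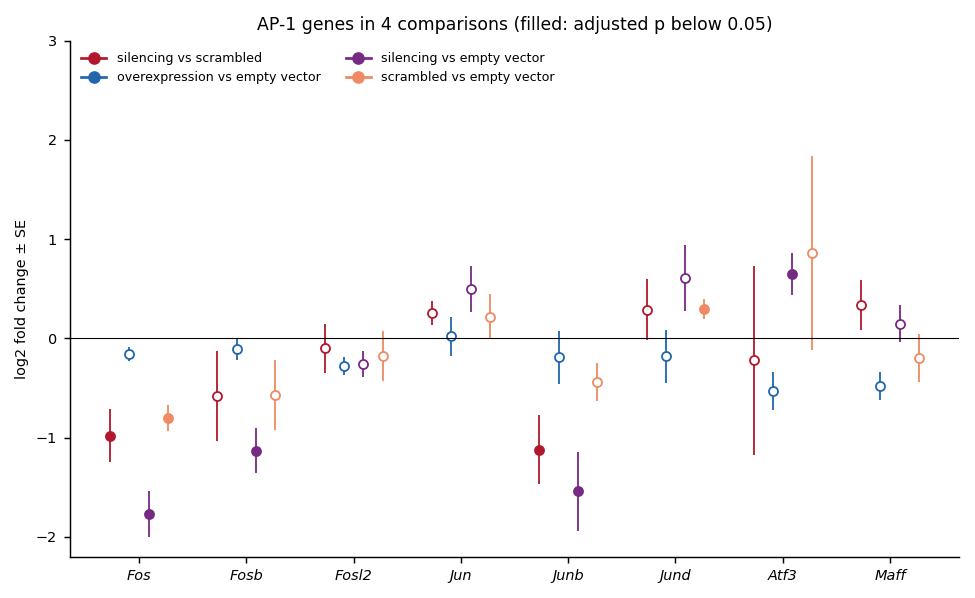
Log2 fold change (vertical axis, ± SE) of the 8 members in the 4 pairwise comparisons; filled symbols have an adjusted p below 0.05 in edgeR. Fos and Junb are lower in silencing than in either control, and the 8 values for overexpression lie between -0.53 and 0.02, none called.

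The scrambled and empty vector cultures are both controls, but their vectors differ in promoter and cargo. They also differed in AP-1 genes: Fos was lower (-0.80, SE 0.13, adjusted p = 0.00262) and Jund higher (0.30, SE 0.10, adjusted p = 0.0346) in scrambled than in empty vector cultures by edgeR. These are 1 of 8 members lower and 1 of 8 higher, against 21.8% of 14096 tested genes lower and 21.3% higher. All 3 scrambled values of Fos were below all 3 empty vector values, whereas those of Jund, 66.8, 66.7 and 60.2 CPM in scrambled against 61.0, 50.6 and 45.5 CPM in empty vector cultures, overlapped. Among all tested genes, 53.4% had groups that did not overlap. The Jund call was lost without scrambled replicate 1 (0.27, adjusted p = 0.073) or 2, without empty vector replicate 2 or 3, without a filter, with GC and length offsets (0.09, adjusted p = 0.284) and in one fit of all 12 libraries (SE 0.32, adjusted p = 0.497). Without scrambled replicate 1, Fosb (-1.05), Fosl2 (-0.45), Atf3 (-0.75) and Maff (-0.51) were all called lower in scrambled than in empty vector cultures, with adjusted p between 4.23e-07 and 0.0112 by edgeR, although with all libraries Atf3 stood at 0.86 (SE 0.98). Neuronal markers differed along with these genes: the 5 glutamatergic markers summed to 269 to 311 CPM in scrambled against 451 to 484 CPM in empty vector cultures, and the 5 GABAergic markers to 2320 to 2460 CPM against 1880 to 1940 CPM. Their part in the result was not tested.

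Set against the empty vector, silencing cultures showed larger differences. Fos (-1.77, SE 0.23, adjusted p = 0.00107), Fosb (-1.13, SE 0.23, adjusted p = 0.00229) and Junb (-1.54, SE 0.40, adjusted p = 0.0218) were lower and Atf3 (0.65, SE 0.21, adjusted p = 0.0174) was higher by edgeR. This was 3 of 8 lower and 1 of 8 higher, against 33.5% of 14292 genes lower and 34% higher. The groups did not overlap for these 4 of the 8 members, against 71% of all tested genes. Fosb, for example, had 10.3, 6.48 and 13.7 CPM in silencing against 23.1, 23.9 and 19.9 CPM in empty vector cultures. The Atf3 call was lost in one fit of all 12 libraries (SE 0.74, adjusted p = 0.464), where Jun was called higher in its place (0.50, adjusted p = 0.0357), with GC and length offsets (0.40, adjusted p = 0.128), without silencing replicate 1 and without empty vector replicate 1 or 3 (adjusted p between 0.0583 and 0.0797), and that of Junb without silencing replicate 2 or empty vector replicate 1 or 2. Without silencing replicate 1, 4 members were lower and 1 higher. Without empty vector replicate 1, 3 were lower and 1 higher, so in both fits other members were called. Here too the markers differed, with glutamatergic sums of 286 to 312 CPM in silencing against 451 to 484 CPM in empty vector cultures and GABAergic sums of 2330 to 2710 CPM against 1880 to 1940 CPM, and their part was not tested. This comparison shares the empty vector libraries with the previous one and with the overexpression comparison, and the vector and the loss of Dek cannot be told apart in it.

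To compare the genes with one another, CPM were divided by the length of the longest annotated coding transcript (CPM per kb). In silencing cultures Jund came first at a mean of 47.6 CPM per kb, then Fosl2 at 28.5, Fos at 21.3, Jun at 17.3, Junb at 8.15, Maff at 7.45, Atf3 at 4.98 and Fosb at 2.68 CPM per kb. In scrambled cultures Fos stood first at 41.6 CPM per kb and Jund after it at 38.7 CPM per kb. The order in empty vector cultures was Fos at 72.4 CPM per kb, Fosl2 at 34.2, Jund at 31.4, Junb at 23.9, Jun at 12.3, Maff at 6.69, Fosb at 5.89 and Atf3 at 3.17 CPM per kb. Every library of Fos was above every library of Jund and Fosl2 in the overexpression and empty vector groups, whereas the ranges of these 3 genes overlapped in scrambled cultures. In silencing cultures the range of Fosl2 overlapped those of Jund and Fos.

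The make-up of each family followed from this and is given as a description, without a test. Fos made up 40.0% ± 3.71 of the FOS family's CPM per kb in silencing, against 55.4% ± 3.03 in scrambled, 65.7% ± 2.49 in overexpression and 64.4% ± 2.93 in empty vector cultures (SD, n = 3 each). Fosl2 made up 54.9% ± 3.86 in silencing against 39.6% ± 1.85 in scrambled cultures, although its own level did not pass the test, and Fosb stayed at 5.09% ± 1.35 against 5.05% ± 1.19. Which gene was largest depended on the division by length: in CPM, Fosl2 was the largest part of the family in all 12 libraries, and the difference in the Fos share between silencing and scrambled was -11.3 percentage points. The shares were close within each group even where levels were not: Fos held 51.9% in scrambled replicate 1, the lowest share of the 3, and at most 57.3% in the other scrambled libraries.

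In the JUN family, Junb made up 10.8% ± 1.88 in silencing, against 25.1% ± 2.96 in scrambled, 34.3% ± 2.06 in overexpression and 35.2% ± 1.84 in empty vector cultures. Jund made up 64.4% ± 3.73 in silencing and 54.7% ± 1.64 in scrambled cultures, and Jun 24.7% ± 5.27 and 20.2% ± 1.41. The Junb shares of the silencing libraries, 9.24% to 12.9%, did not overlap those of the scrambled libraries, 23.1% to 28.5%. The difference between silencing and scrambled in the Junb share was -14.3 percentage points with all libraries and between -15.3 and -12.6 over the 6 single omissions, silencing replicate 1 included. For the Fos share it was -15.4 points, and between -17.3 and -13.6.

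**Figure D4:**
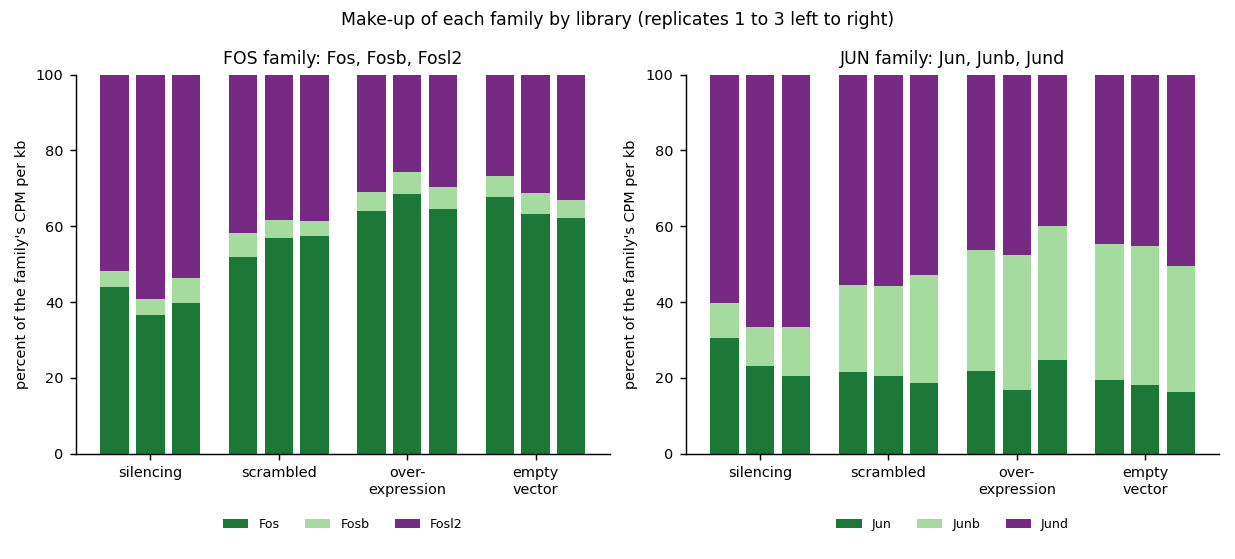
Share of each gene in the summed CPM per kb of its family (vertical axis, percent), 1 bar per library with replicates 1 to 3 left to right in each group. Fos falls to 36.5 to 43.9% of the FOS family in silencing against 51.9 to 57.3% in scrambled libraries, and Junb to 9.24 to 12.9% of the JUN family against 23.1 to 28.5%.

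Within groups, the 8 genes deviated in 2 blocks. After subtraction of the group means, Fosl2 and Maff moved together across the 12 libraries (Pearson r = 0.96), and Fosl2 was also close to Atf3 (0.80), Fosb (0.76) and Fos (0.72). Junb and Jund formed the other pair (0.91), with Jun at 0.68 and 0.67 to them. Between the blocks r was low or negative, such as -0.42 for Maff and Jund. These correlations are over 12 libraries in 4 groups that share depth and base composition, and are given as a description.

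The block of Fosl2, Maff, Atf3 and Fosb was high in scrambled replicate 1. On the log2 scale this library was 2.68 above the mean of its 2 companions in Atf3, 1.09 in Fosb (rank 10 of 11018 genes), 0.73 in Maff and 0.68 in Fosl2, but only 0.43 in Fos, 0.19 in Jun, 0.07 in Jund and -0.11 in Junb. Ddit3 (1.23) and Chac1 (1.11), genes of the integrated stress response, were among its 9 furthest genes, together with Gadd45g (1.52). Ddit3 and Gadd45g were picked after their values were seen. What set this library apart was not tested.

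Jund and Junb have the highest GC content of the 8 transcripts, at 67.1% and 62.6%, against 51.9 to 57.6% for the other 6. In silencing replicate 1, where GC-rich genes were low (r = -0.42 over 10854 genes), Jund was 0.68 and Junb 0.80 below their group means on the log2 scale. In overexpression replicate 2 (r = 0.60) they were 0.50 and 0.46 above, and in overexpression replicate 3 (r = -0.58) 0.55 and 0.35 below. Junb also lay apart where this trend was weaker, at 0.64 above in silencing replicate 3 (r = 0.35) and 0.39 below in empty vector replicate 3 (r = -0.13). Jun had the sign of r in silencing replicate 1 (0.25 below) and overexpression replicates 2 (0.08 above) and 3 (0.13 below), by less than Jund and Junb. In silencing replicates 2 and 3 it was 0.14 and 0.11 above. Its furthest values were in empty vector replicates 3 (0.44 below, r = -0.13) and 1 (0.41 above, r = 0.25). Its sign was opposite to that of r in scrambled replicates 1 (0.13 above) and 3 (0.16 below), overexpression replicate 1 and empty vector replicate 2. Fos did not follow the trend, at 0.43 above its group mean in silencing replicate 1 and 0.07 and 0.08 above in overexpression replicates 2 and 3. The part of base composition in the calls was not tested.

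An offset for GC content and transcript length, added after these values were seen, lowered the SE of Junb and Jund, but not that of Fos. For silencing against scrambled cultures Junb then had a log2 fold change of -1.29 (SE 0.25, adjusted p = 0.00649), Fos -1.06 (SE 0.29, adjusted p = 0.0319), and Jund 0.10 (SE 0.13) by edgeR. Jun stood at 0.17 (SE 0.11, adjusted p = 0.199, edgeR), against 0.26 without the offset. With this offset Junb was also lower in scrambled than in empty vector cultures (-0.64, SE 0.16, adjusted p = 0.0206), while Jund was not called in any comparison. The offset was fitted to each library's deviation from the mean of all libraries compared. It therefore also takes out group differences that follow GC content or length, and cannot tell technical ones from real ones.

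**Figure D5:**
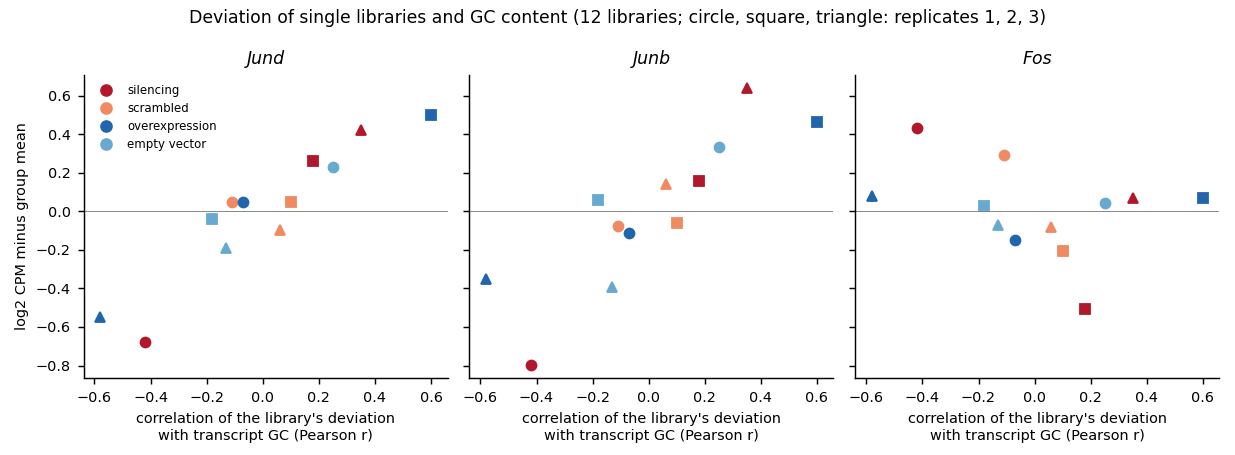
Log2 CPM of Jund, Junb and Fos minus the mean of their group (vertical axis) against the Pearson correlation, over 10854 genes, of each library's deviation with transcript GC content (horizontal axis); 12 libraries, coloured by group, with replicates 1, 2 and 3 as circle, square and triangle. Jund is lowest in silencing replicate 1 and overexpression replicate 3, at r of -0.42 and -0.58, Junb is lowest in silencing replicate 1 and then in empty vector replicate 3, at r of -0.13, and Fos shows no such order.

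The genes whose profile was most like that of Fos were found among 11006 genes by Pearson r over the 12 libraries. With group means subtracted these were Rasd1 (0.938), Lamb1 (0.922), Mir22hg (0.921), Nr4a1 (0.920) and Tbc1d1 (0.918). Without subtraction, where the group differences enter, they were Ppp1r3e (0.984), Nr4a1 (0.983), Dcc (0.979), R3hdm1 (0.978) and Slit2 (0.976). Nr4a1, an immediate early gene for an orphan nuclear receptor, was on both lists. For Jun the nearest included Xrn2 (0.917), Abl1, Ache and Gpank1 (0.895) with subtraction and Sh2d3c (0.895), Nfkbil1, Bhlhe41, Ubald2 and Rgma (0.865) without, and none of these was on both lists.

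Other immediate early genes outside AP-1 were lower in silencing than in scrambled cultures in 10 of 24 tested cases and higher in 1, with a median log2 fold change of -0.37 over the list against -0.00 over all genes. The lower ones included Egr1 (16.1 against 58.1 CPM; -1.86, SE 0.12, adjusted p = 3.68e-07), Npas4 (24.7 against 99.6 CPM; -2.02, SE 0.15), Homer1 (-0.96, SE 0.10) and the plasticity gene Arc (-1.01, SE 0.12), and Btg2 was higher (0.44, SE 0.08). The 3 Nr4a genes were not called in this comparison, at -0.79 for Nr4a1 (adjusted p = 0.0513), -0.02 for Nr4a2 and -0.03 for Nr4a3. All were lower in silencing than in empty vector cultures, Nr4a1 by 1.76 on the log2 scale. All p-values of gene lists are from edgeR, adjusted over all tested genes.

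The factors that act on the Fos promoter in response to signalling were split, with 7 of 17 lower and 3 higher in silencing than in scrambled cultures (median -0.13). Srf, the serum response factor, was lower (-0.48, SE 0.08, adjusted p = 0.000208), as were Creb1 (-0.46, SE 0.08, adjusted p = 0.00043), the coactivator gene Ep300 (-0.60, SE 0.08) and Mef2d (-0.32, SE 0.06). Mef2a (0.88, SE 0.06, adjusted p = 3.1e-07), Elk1 (0.52, SE 0.10) and Mkl1 (0.22, SE 0.06) were higher.

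Among MAP kinases and the kinases upstream of them, 15 of 36 were lower and 9 higher (median -0.08). The lower ones were led by Mapk10, which codes for the neuronal kinase JNK3 that phosphorylates JUN (135 against 248 CPM; -0.89, SE 0.05, adjusted p = 6.56e-08), Map3k9 (-1.09, SE 0.07), the JNK scaffold gene Mapk8ip2 (-0.93, SE 0.07) and Map3k4 (-0.84, SE 0.07). The higher ones with the smallest adjusted p were Map3k11 (0.84, SE 0.09), Map3k1 (1.07, SE 0.14), Mapk7 (0.42, SE 0.07) and Map2k3 (0.45, SE 0.08). Genes for the breakdown of AP-1 proteins and for their cofactors were lower in 5 of 11 cases and higher in 1 (median -0.25). Fbxw7, part of the ubiquitin ligase that marks JUN for degradation, was lower (-0.76, SE 0.06, adjusted p = 4.75e-07), as was Rfwd2, coding for the ligase COP1 (-0.45, SE 0.07). Smarcd1 (-0.72, SE 0.06), Smarca4 (-0.59, SE 0.05) and Wdr77 (-0.51, SE 0.06) were also lower, and Sirt1 was higher (0.38, SE 0.13).

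Other bZIP genes of the AP-1, MAF and ATF groups moved both ways, with 7 of 24 tested genes lower and 6 higher (median 0.01), while 8 of the 32 on the list, Fosl1 and the Batf genes among them, were too low to test. Nfe2l1 (-0.82, SE 0.06, adjusted p = 5.56e-07), Creb1, Nfe2l3 (-1.40, SE 0.34) and Mafk (-0.47, SE 0.13), coding for another small MAF protein, were lower. Atf5 (0.98, SE 0.08, adjusted p = 2.18e-06), Atf7 (0.95, SE 0.10), Cebpg (0.36, SE 0.11) and Creb3 (0.18, SE 0.06) were higher. Ddit3 was at -0.16 (SE 0.41) and Jdp2, a repressor that pairs with JUN proteins, at 0.00 (SE 0.12), neither called.

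Known AP-1 target genes did not share a direction, with 5 of 18 tested lower and 3 higher (median -0.13). Gria2, an AMPA receptor subunit gene regulated by FOSB, was lower (139 against 325 CPM; -1.24, SE 0.06, adjusted p = 2.26e-08), as were Hbegf (-0.50, SE 0.08) and Ccnd1 (-1.57, SE 0.18). Plau (2.71, SE 0.27), Hmox1 (0.48, SE 0.08) and Timp1 (2.35, SE 0.47) were higher, Plau and Timp1 at levels of 5.60 and 1.04 CPM in silencing against 0.839 and 0.194 CPM in scrambled cultures. Of the axon injury genes that go with Jun and Atf3, 8 of 16 tested were lower and none higher (median -0.32), among them Klf6 (-0.97, SE 0.07, adjusted p = 2.76e-07), Sema6a (-0.75, SE 0.06), Chl1 (-0.62, SE 0.06) and Gap43 (-0.46, SE 0.05). Set against empty vector cultures, the same list had 8 genes lower and 5 higher. In overexpression none of the genes on these 7 lists was called. As for the members, each count against scrambled cultures is to be read against the 28.5% lower and 26.2% higher among all genes. For counts against empty vector cultures the shares were 33.5% lower and 34% higher.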

How the data were processed

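RNA-seq of 12 cultures was analysed. The deposited table holds estimated counts per gene (expected counts, not normalized), for which the authors name Salmon and mm10 in their processing notes and STAR in their methods; 38.6% of values were not whole, and 9 rows without a symbol were kept out of the named genes. Each sample was assigned by its label, and all 12 columns were used. The 8 members, the gene lists and the tests were chosen with earlier results of these data known.

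Counts were rounded. Genes were filtered by edgeR's filterByExpr on the libraries compared, scaled by TMM and tested by quasi-likelihood (edgeR 4.0.16, limma 3.58.1, R 4.3.3), with Benjamini-Hochberg adjustment over all tested genes and a threshold of 0.05. Each comparison used only its own groups, and the difference of responses used all 12 libraries. SE is the log2 fold change over the square root of F. CPM used TMM factors over 12 libraries. The procedure was tested on simulated data. The text names all members, Dek, up to 4 genes per list and direction by smallest adjusted p in silencing against scrambled, any gene of a list of at most 20, and the 5 genes most like Fos and Jun at a mean of at least 5 CPM. Some genes that this rule picks are not reported here. The further genes given with values (the Nr4a genes, Jdp2, Ddit3 and Gadd45g) were picked after their values were seen.

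The numbers 1, 2 and 3 were taken to pair silencing and scrambled libraries (correlation of deviations from the group means 0.47, 0.33 and 0.16). For 2 of the 3 silencing libraries the scrambled library of the same number was the closest by this correlation. The labels do not say what a number marks. Alternatives were DESeq2 1.42.0 size factors and Wald test, library totals, limma-voom, no filter, at least 5 CPM in 3 libraries, one fit of all libraries, the replicate block, each library left out and, added later, GC and length offsets. Promoter windows came from RefSeq, build GRCm38.p6, with Python 3.11.15, and figures from matplotlib 3.10.9.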

Additional observations from a re-analysis of the deposited data

How the results depend on the processing

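With all libraries 2 members were called in silencing against scrambled cultures. DESeq2's Wald test called 3 (Jun added), the replicate block 3 (Maff added), and library totals 2 with Jun higher in place of Junb. The count was 0 without a low-count filter, 6 without both libraries numbered 1, and between 0 and 4 when single libraries were left out. Without scrambled replicate 1 the 2 genes called were Atf3 and Maff, both higher, in place of Fos and Junb. In scrambled against empty vector cultures it was 2, with 4 by limma-voom, 1 without a filter, 1 in one fit of 12 libraries and 1 to 5 when libraries were left out. For the difference of responses it was 0, with 1 by library totals, 2 by DESeq2's Wald test, 3 by limma-voom, 2 at a minimum of 5 CPM, 1 with the replicate block, 2 with GC and length offsets, and 0 to 2 when libraries were left out. For silencing against empty vector cultures the main count was 3 lower and 1 higher. It was 4 lower and 1 higher by DESeq2's Wald test and 3 lower and 2 higher by limma-voom. When single libraries were left out it was 2 to 4 lower and 0 to 1 higher. Under every alternative overexpression gave 0 of 8. Adjusted p in silencing against scrambled ranged over all alternatives between 3.15e-08 and 0.0932 for Fos, 0.00012 and 0.117 for Junb, 0.000386 and 0.255 for Jun, 2.48e-05 and 0.859 for Jund, 0.000371 and 0.98 for Atf3 and 0.0136 and 0.607 for Maff (edgeR, DESeq2 and limma).

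Signs changed as follows. Atf3 in silencing against scrambled was 0.37 by limma-voom, 0.13 with the replicate block, 0.02 with offsets and block, 1.11 without both libraries numbered 1, and -0.67 to 1.37 when single libraries were left out. Fosl2 in that comparison was 0.01 with offsets and block, 0.06 without both libraries numbered 1 and -0.24 to 0.16 over omissions. Over omissions in overexpression against empty vector, Fosb ranged from -0.21 to 0.01, Jun from -0.17 to 0.25 and Jund from -0.46 to 0.05. Maff in silencing against empty vector was -0.18 with offsets and -0.03 to 0.31 over omissions. Atf3 in scrambled against empty vector ranged from -0.75 to 1.31, and in the difference of responses Fosb ranged from -0.75 to 0.02 and Atf3 from -0.12 to 1.93. The cause was not tested beyond the omissions themselves.

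Scaling by library totals moved the median of all genes in silencing against scrambled to 0.10 and the calls to 4793 higher and 3210 lower, against 3730 and 4060. Numbers did not pair the libraries in the other comparisons (correlations between -0.43 and 0.04); the block left 0 members called in overexpression, 2 in scrambled against empty vector, and 3 in silencing against empty vector, where Junb was lost (adjusted p = 0.0632, edgeR). With 3 libraries a group, a difference as small as the shift of Jun lies near what the spread between libraries can show.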
